A study of Mus musculus with 58 samples.

Results

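The genes of the immunoproteasome and of MHC class I loading were followed in the leg muscle and the diaphragm of mice that carried human pancreatic tumours. The set holds 10 genes chosen by name: the catalytic subunits Psmb8, Psmb9 and Psmb10, the proteasome activator subunits Psme1 and Psme2, the peptide transporter genes Tap1 and Tap2, the loading factor Tapbp, the light chain B2m and the regulator Nlrc5. All 10 were found, each with 1 probe set, among the 23185 genes named on the array.

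Every cell cuts its proteins into peptides with the proteasome and displays some of them on MHC class I molecules. The immunoproteasome is a form of this protease in which the catalytic subunits are replaced by the products of Psmb8, Psmb9 and Psmb10, and it is induced by interferons. Peptides enter the endoplasmic reticulum through the TAP transporter, tapasin holds TAP and the empty class I molecule together, and beta-2 microglobulin completes the molecule that reaches the surface. Nlrc5 is a transactivator of class I genes, and resting muscle fibres are known for low class I display.

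Adult female NSG mice, an immunodeficient strain that lacks mature T, B and NK cells, received pieces of pancreatic ductal adenocarcinoma resected from cachectic patients, attached to the pancreas (PDX, patient-derived xenograft). Sham mice of the same strain had surgery without a tumour. The 4 cohorts each used the tumour of 1 patient and had their own sham mice, so a patient's tumour and its cohort cannot be told apart. Each cohort had 3 sham arrays per muscle, and 3, 5, 5 and 4 PDX arrays in cohorts 1 to 4, which made 12 sham and 17 PDX arrays of the tibialis anterior, a leg muscle, and the same numbers of the diaphragm. Animals were killed at severe cachexia or large tumour size of the tumour-bearing mice, not at a set time given in the labels. The labels do not state that each array came from a separate animal, so p-values speak only of the spread seen between arrays.

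The arrays held log2 values with array medians from 3.70 to 3.86. The mean of 8 skeletal muscle markers was high on all 58 arrays, from 10.5 to 11.4. The slow troponin gene Tnnt1, 1 of these 8, was low in the tibialis anterior (sham mean 4.475). In the sham diaphragm it was higher by 4.91. Defining lymphocyte markers were near the array background: 7 of 9 in the tibialis anterior and 6 of 9 in the diaphragm, Cd3e, Cd8a and Ms4a1 among them in both, lay below the median of all values (3.78) on every array. Many diaphragm arrays stood apart by liver transcripts. The mean of 9 hepatocyte markers, such as albumin (Alb), ran from 4.22 to 10.8 on sham and from 4.16 to 11.2 on PDX diaphragm arrays, against 3.38 to 6.45 in the tibialis anterior. It lay over 6 on 6 sham and 9 PDX arrays of the diaphragm, and 5 sham and 6 PDX arrays lay more than 1 above the diaphragm median. These last arrays are called the liver-RNA arrays here, and members are also given without them. Without them, the diaphragm of cohort 1 kept only sham replicate 1 and PDX replicate 2, with hepatocyte means of 4.41 and 7.73. Cohort 3 kept only sham replicate 3 of its sham diaphragm arrays. Every cohort kept an equal weight, so calls gained or lost without the liver-RNA arrays rest in part on single arrays. None of the 9 markers passed between PDX and sham in either muscle (limma, 0 also at an unadjusted p under 0.05). Their spread in the diaphragm was wide, with an SE of 0.66 for Cyp2e1 and 1.16 for Apoc3, so this does not show balance. In cohort 3 the liver-RNA arrays were sham replicates 1 and 2 and PDX replicate 4, and in cohort 4 only PDX replicate 3.

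Sequences before the start of 6 members are shown: Psmb10, Psme1, B2m and Tap1, which passed between PDX and sham in a muscle, and Psmb8 and Tapbp, whose tumour effect differed between the muscles. They come from RefSeq on GRCm38.p6, are written 5′ to 3′ in the direction of the gene, and hold the 250 bases before the gene start, with 20 bases after it for Psme1. Windows were given for 8 of the 10 members (9 windows of 300 bases, 50 of them after the start), and Tap2 and Nlrc5 had none. Capitals mark 3 motifs searched on both strands with no overlap between the matches: the interferon-stimulated response element as GAAA, any 2 bases and GAAA again, the gamma-activated site as TTCNNNGAA, and CCAAT. On the plus strand, Psmb8 is at chr17:34197945-34198194, Psme1 at chr14:55578244-55578513, Tap1 at chr17:34187306-34187555, Tapbp at chr17:33919228-33919477 and B2m at chr2:122147437-122147686. Psmb10 is on the minus strand, at chr8:105938393-105938642.
Psmb8: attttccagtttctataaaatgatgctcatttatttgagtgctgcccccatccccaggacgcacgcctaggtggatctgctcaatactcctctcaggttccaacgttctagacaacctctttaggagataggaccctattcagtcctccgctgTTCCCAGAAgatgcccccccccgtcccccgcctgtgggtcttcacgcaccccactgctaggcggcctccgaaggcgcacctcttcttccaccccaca
Psmb10: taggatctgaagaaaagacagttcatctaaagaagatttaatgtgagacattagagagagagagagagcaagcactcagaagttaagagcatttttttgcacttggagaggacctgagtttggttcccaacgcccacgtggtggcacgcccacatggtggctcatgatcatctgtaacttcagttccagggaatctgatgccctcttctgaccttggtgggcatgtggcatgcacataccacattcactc
Psme1: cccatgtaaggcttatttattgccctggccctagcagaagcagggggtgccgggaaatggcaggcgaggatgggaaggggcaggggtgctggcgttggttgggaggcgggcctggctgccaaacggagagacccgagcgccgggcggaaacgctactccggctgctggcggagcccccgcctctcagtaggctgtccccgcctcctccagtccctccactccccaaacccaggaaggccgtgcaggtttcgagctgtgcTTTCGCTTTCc
Tap1: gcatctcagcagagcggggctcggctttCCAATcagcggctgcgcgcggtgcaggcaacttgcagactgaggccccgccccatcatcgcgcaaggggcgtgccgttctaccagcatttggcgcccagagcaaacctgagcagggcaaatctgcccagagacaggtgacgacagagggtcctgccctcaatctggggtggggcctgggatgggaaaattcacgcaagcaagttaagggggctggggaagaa
Tapbp: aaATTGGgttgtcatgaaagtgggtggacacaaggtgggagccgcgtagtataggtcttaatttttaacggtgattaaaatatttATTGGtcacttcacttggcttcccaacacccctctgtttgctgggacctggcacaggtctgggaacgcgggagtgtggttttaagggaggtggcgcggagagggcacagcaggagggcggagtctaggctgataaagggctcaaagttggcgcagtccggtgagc
B2m: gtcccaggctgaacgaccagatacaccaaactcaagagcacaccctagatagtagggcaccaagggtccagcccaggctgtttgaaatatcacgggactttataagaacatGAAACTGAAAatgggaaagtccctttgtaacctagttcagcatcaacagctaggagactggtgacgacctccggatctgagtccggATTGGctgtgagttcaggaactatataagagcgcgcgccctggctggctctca

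The response element was found in B2m, with its first base at -139 from the gene start, and in Psme1, in reverse, with its first base at 10 after the start. Of the 32851 promoter windows in the table, 3.44% held it. The gamma-activated site was found in Psmb8, with its first base at -97, and in 8.30% of all windows. CCAAT, which 37.4% of windows held, was in the windows of B2m, Tapbp, Psmb9 and Tap1. The windows of Psmb10 and Psme2 held none of the 3 motifs. A match only describes the letters.

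The members lie in few places. Psmb9, Tap1, Psmb8 and Tap2 are direct neighbours on chromosome 17, between the class II genes H2-DMb1 and H2-Ob, and Tapbp is on the same chromosome. Psmb9 and Tap1 run in opposite directions, and their windows share 275 bases, which include all of the Tap1 sequence above. Psme1 and Psme2 lie on chromosome 14 with only Emc9 between them, Psmb10 and Nlrc5 on chromosome 8, and B2m on chromosome 2.

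In sham mice, most members were higher in the diaphragm than in the tibialis anterior. The light chain B2m differed most, 2.51-fold, followed by tapasin (Tapbp, 1.65-fold) and the transporter genes Tap2 (1.58-fold) and Tap1 (1.42-fold). Of the 10 members, 7 passed as higher in the diaphragm and 1 as lower, where 15.2% of all genes passed as higher and 24.5% as lower (limma, Benjamini-Hochberg adjusted p under 0.05 over all 23185 genes). The members' median difference was 0.38 on the log2 scale, against -0.09 over all genes.

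Of the catalytic subunits, Psmb8 ran from 4.35 to 5.11 (median 4.76) on the 12 sham tibialis anterior arrays and from 4.85 to 5.45 (median 5.10) on the 12 sham diaphragm arrays. These groups overlapped, with 6 of the 12 diaphragm arrays above every tibialis anterior array, and the difference was 0.41 ± 0.11 (SE, adjusted p = 0.00321). Psmb10 was higher by 0.27 ± 0.08 (SE, adjusted p = 0.00439), and Psmb9 by 0.21, which did not pass (adjusted p = 0.0655). Psmb9 did pass when tibialis anterior sham replicate 1 or diaphragm sham replicate 3 of cohort 4, diaphragm PDX replicate 4 of cohort 4 or tibialis anterior PDX replicate 1 of cohort 3 was left out (adjusted p from 0.0375 to 0.0490).

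The activator subunits went apart. Psme1 was higher in the sham diaphragm by 0.35 ± 0.09 (SE, adjusted p = 0.00139), with no overlap between the muscles within any of the 4 cohorts. Psme2 was lower by 0.30 ± 0.11 (SE, adjusted p = 0.0312), but its groups overlapped in 3 of 4 cohorts. Psme2 lost its call when any of 7 sham arrays was left out: tibialis anterior replicates 1 and 2 of cohort 2, 2 and 3 of cohort 3 and 1 of cohort 4, and diaphragm replicate 1 of cohort 3 and replicate 3 of cohort 4 (adjusted p from 0.0509 to 0.0940).

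Tap1 ran from 4.42 to 4.89 (median 4.79) in the sham tibialis anterior and from 4.97 to 5.65 (median 5.16) in the sham diaphragm. All 12 diaphragm arrays lay above all 12 tibialis anterior arrays, and the difference was 0.51 ± 0.07 (SE, adjusted p = 5.3e-08). Tap2, its partner in the transporter, was higher by 0.66 ± 0.10 (SE, adjusted p = 3.08e-07), and Tapbp by 0.73 ± 0.08 (SE, adjusted p = 6.26e-10).

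B2m ran from 8.55 to 9.40 (median 9.10) in the sham tibialis anterior and from 9.42 to 11.2 (median 10.3) in the sham diaphragm. The groups did not overlap, and the difference was 1.33 ± 0.14 (SE, adjusted p = 6.5e-11). Nlrc5 lay below the median of all values in all 4 groups of muscle and treatment, near the background of the array, and its difference of 0.03 did not pass (adjusted p = 0.867).

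The liver transcripts moved with part of this comparison. All 9 hepatocyte markers passed as higher in the sham diaphragm (median 3.31), as did 10 of 11 macrophage markers, 7 of 8 fibroblast markers, 4 of 12 endothelium markers and all 6 mesothelium markers. Without the liver-RNA arrays, 6 members passed as higher and 0 as lower: B2m at 1.01 (adjusted p = 5.33e-08) and Tap1 at 0.44 (adjusted p = 2.45e-05) still passed, while Psmb10 (0.22, adjusted p = 0.0618) and Psme2 (-0.28, adjusted p = 0.155) did not. With the hepatocyte mean of the diaphragm arrays as a covariate, chosen after the data were seen, 5 members passed as higher and 0 as lower: Psmb8 at 0.23 (adjusted p = 0.121), Psmb10 at 0.19 (adjusted p = 0.0823) and Psme2 at -0.24 (adjusted p = 0.145) did not pass. The part of the other cell types in these differences was not tested. In bulk muscle RNA, a change in the share of a cell type and a change in RNA per cell cannot be told apart.

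**Figure D1:**
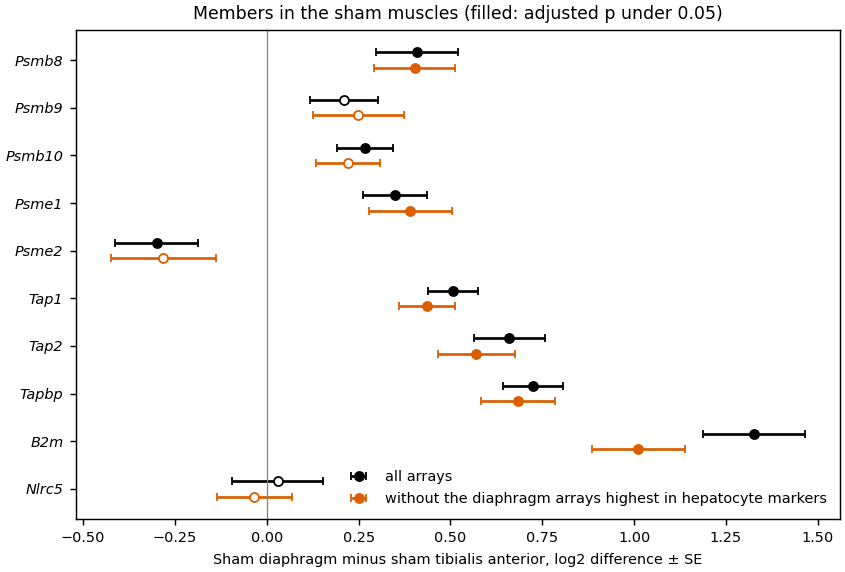
Difference of each member between the sham diaphragm and the sham tibialis anterior (log2, mean of the 4 cohorts, bars are SE), from all 58 arrays (black) and without the diaphragm arrays highest in hepatocyte markers (orange). Filled points passed at an adjusted p under 0.05; B2m stands furthest right at 1.33 and 1.01, and Psme2 lies left of 0.

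Among tumour-bearing mice, 3 members fell in the tibialis anterior: the activator subunit Psme1 to 0.740 of the sham level, B2m to 0.755 and the catalytic subunit Psmb10 to 0.841. The transporter genes did not pass in either direction, and no member rose. Of the 10 members, 3 passed as lower and 0 as higher, where 6.53% of all genes passed as lower and 6.32% as higher. At an unadjusted p under 0.05 there were 6 members, all 6 with an estimate below 0, and 5523 of all 23185 genes in either direction. The members' median was -0.16, against -0.01 over all genes.

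Psme1 values in cohort 1 were 7.71, 7.78 and 7.75 on the sham arrays and 7.24, 7.14 and 7.02 on the PDX arrays. In cohort 3 they were 7.21, 7.20 and 7.02 in sham and 6.84, 6.98, 6.77, 6.48 and 6.38 in PDX mice. In cohort 4 they were 7.53, 7.43 and 7.42 in sham and 6.74, 6.996, 7.23 and 7.10 in PDX mice. In these 3 cohorts every PDX array lay below every sham array. In cohort 2 the sham values of 7.51, 7.44 and 7.36 overlapped the PDX values of 6.78, 7.38, 7.34, 7.49 and 7.06. The change over the cohorts was -0.43 ± 0.07 (SE, adjusted p = 0.000197), with the same sign in all 4 cohorts, and 9 of 17 PDX arrays lay below every sham array. Cohort 1 alone also passed (-0.62, adjusted p = 0.0340), where 1.31% of all genes passed as lower. The paired subunit Psme2, which joins Psme1 in the same ring, had a difference of -0.04 (adjusted p = 0.894).

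B2m was lower by 0.41 ± 0.09 (log2, SE, adjusted p = 0.00350). In cohort 3 its sham values were 8.83, 8.55 and 8.62, and its PDX values were 7.72, 8.14, 8.42, 7.84 and 7.54. In cohort 4 the sham values were 9.16, 9.10 and 9.25, and the PDX values were 8.53, 8.60, 8.48 and 8.81. The groups did not overlap in these 2 cohorts, and cohort 3 alone passed (-0.73, adjusted p = 0.0107), where 4.07% of all genes passed as lower. Cohort 1 overlapped, with 9.40, 9.10 and 9.31 in sham and 9.29, 9.37 and 9.04 in PDX mice, and so did cohort 2, where 1 PDX array stood at 8.02 and the others between 8.75 and 9.001. The call was lost without cohort 3 (-0.30, adjusted p = 0.0624) or cohort 4 (-0.35, adjusted p = 0.0621), and kept without any 1 array (highest adjusted p = 0.00976). With the 4 cohorts taken as the replicates the adjusted p was 0.0741.

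Psmb10 was lower by 0.25 ± 0.07 (log2, SE, adjusted p = 0.0194), with the same sign in all 4 cohorts. In cohort 1 its sham values were 5.78, 5.67 and 5.59 and its PDX values 5.24, 4.996 and 5.18. The groups were apart there and overlapped in the other 3 cohorts. Without cohort 1 the value was -0.15 and did not pass (adjusted p = 0.372), nor did it pass without cohort 3 (-0.21, adjusted p = 0.0729). With the cohorts as the replicates the adjusted p was 0.196; Psme1 kept its call in all 43 alternatives tried (highest adjusted p = 0.0233).

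Of the other catalytic subunits, Psmb8 had -0.20 (adjusted p = 0.198), with the same sign in all 4 cohorts, and Psmb9 -0.05 (adjusted p = 0.820). Tapbp had -0.15 (adjusted p = 0.150) and passed when cohort 3 or the PDX array of cohort 3 numbered 1 was left out (-0.19, adjusted p = 0.0419, and -0.18, adjusted p = 0.0282). Nlrc5 had -0.18 (adjusted p = 0.134). Tap1 (0.04, adjusted p = 0.769) and Tap2 (0.06, adjusted p = 0.771) lay close to 0, and the cohorts of Tap2 ran from -0.30 in cohort 4 to 0.35 in cohort 1.

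Markers of other cell types moved with this comparison. All 8 fibroblast markers fell, and the mean of the list ran from 6.58 to 7.18 (log2 level per array) in sham and from 4.82 to 6.48 in PDX mice. Of the 7 tendon markers 6 fell, from array means of 5.29 to 7.14 in sham to 3.94 to 5.81 in PDX mice. Of 11 macrophage markers 1 rose (Cd163, 0.29) and 2 fell (C1qb, -0.38, and C1qa, -0.29), with array means of 4.403 to 5.15 in sham and 4.17 to 5.06 in PDX mice. Of 12 endothelium markers 4 rose, among them Plvap (0.56), Vwf (0.42) and Esam (0.28), and 1 fell, Kdr (-0.87), with array means of 6.47 to 6.86 in sham and 6.39 to 6.98 in PDX mice. The part of these cell types in the falls of Psme1, B2m and Psmb10 was not tested. The muscle held 1 PDX array over 6 in the hepatocyte mean, and without it the same counts of 3 lower and 0 higher were found.

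In the diaphragm, the transporter gene Tap1 rose 1.18-fold in tumour-bearing mice, and no other member passed. Of the 10 members, 1 passed as higher and 0 as lower, where 5.89% of all genes passed as higher and 6.58% as lower. At an unadjusted p under 0.05 there were 5 members: Tap1, Psmb8, Tapbp and Nlrc5 with estimates above 0 and Psme2 below. Over all 23185 genes there were 5453 in either direction. The members' median was 0.06, against -0.004 over all genes.

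Tap1 values in cohort 1 were 5.37, 5.43 and 5.65 in sham and 5.91, 5.96 and 5.75 in PDX mice. In cohort 2 they were 5.15, 5.34 and 5.14 in sham and 5.68, 5.89, 5.62, 5.36 and 5.63 in PDX mice. Every PDX array of these 2 cohorts lay above every sham array. In cohort 3 the sham values of 5.45, 5.09 and 4.97 overlapped the PDX values of 5.40, 5.16, 5.04, 5.63 and 5.24, and in cohort 4 the sham values of 5.17, 5.15 and 5.04 overlapped the PDX values of 5.14, 5.13, 5.44 and 4.91. The change was 0.24 ± 0.07 (log2, SE, adjusted p = 0.0261), with the same sign in all 4 cohorts. It did not pass without cohort 1 (0.19, adjusted p = 0.213) or cohort 2 (0.18, adjusted p = 0.265), without the liver-RNA arrays (0.26, adjusted p = 0.0862), or when sham replicate 1 or PDX replicate 2 of cohort 1 or sham replicate 3 of cohort 3 was left out (adjusted p from 0.0520 to 0.0575). With the 4 cohorts taken as the replicates it had an adjusted p of 0.204, and with each array centred on its median 0.0512. With the hepatocyte mean as a covariate, chosen after the data were seen, Tap1 passed (0.25, adjusted p = 0.0111).

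Psmb9, whose start region overlaps that of Tap1, had 0.05 (adjusted p = 0.812). Psmb8, the next gene after Tap1, had 0.32 ± 0.11 (SE), a larger estimate that did not pass (adjusted p = 0.0605). In cohort 2 its sham values were 4.95, 4.96 and 5.20 and its PDX values 6.01, 5.84, 5.67, 5.50 and 5.51, with no overlap. In cohorts 3 and 4, 1 PDX array each stood far above the rest, at 5.98 against 4.90 to 5.11 and at 6.09 against 5.06 to 5.22. These 2 arrays had hepatocyte means of 11.2 and 10.9. Psmb8 passed when the first of them was left out (0.27, adjusted p = 0.0493), when PDX replicate 3 of cohort 3 or PDX replicate 1 of cohort 4 was left out (0.34, adjusted p = 0.0482, and 0.35, adjusted p = 0.0413), and without cohort 3 (0.43, adjusted p = 0.0170). Without the liver-RNA arrays it had 0.19 (adjusted p = 0.170), and with the hepatocyte mean as a covariate it passed (0.33, adjusted p = 0.0127).

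Tapbp had 0.20 (adjusted p = 0.142) and passed without cohort 4 (0.30, adjusted p = 0.0441) or without PDX replicate 3 of cohort 3 (0.24, adjusted p = 0.0338). Nlrc5 had 0.30 (adjusted p = 0.202), with the PDX array of cohort 4 at 4.85 above the 3.36 to 3.44 of its group; this array is the one whose hepatocyte mean was 10.9. Without the liver-RNA arrays Nlrc5 had 0.16 (adjusted p = 0.503). B2m had 0.06 (adjusted p = 0.877) with all arrays and 0.26 (adjusted p = 0.282) without the liver-RNA arrays. Psme2 had -0.18 (adjusted p = 0.209), with the same sign in all 4 cohorts, and Psme1 -0.16 (adjusted p = 0.305); without the liver-RNA arrays they had -0.20 and -0.24 (adjusted p = 0.365 and 0.371). Psme1 passed as lower without cohort 3 (-0.24, adjusted p = 0.00945). Psmb10 (0.02, adjusted p = 0.902) and Tap2 (0.01, adjusted p = 0.967) lay close to 0, but the Psmb10 PDX arrays lay above the sham arrays in cohort 2 (0.36) and below them in cohort 3 (-0.31). Without the liver-RNA arrays Tapbp had 0.22, Tap2 0.04, Psmb10 0.01 and Psmb9 -0.03, and no member passed.

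Macrophage markers moved with this comparison: 9 of 11 rose, and their array mean ran from 5.28 to 6.40 in sham and from 5.94 to 7.47 in PDX mice. The largest rise was in Cd68 (1.32). Of 9 lymphocyte markers 1 rose, Cd4 (0.34), while Cd3e, Cd3d, Cd8a, Ms4a1, Cd79a and Ncr1 lay below the median of all values on every array. Of 12 endothelium markers 3 rose, Plvap (1.09), Vwf (0.52) and Pecam1 (0.34), and 1 fell, Kdr (-0.23), with array means of 6.60 to 7.04 in sham and 6.47 to 7.44 in PDX mice. In each of 4 further lists 1 marker rose: Msln (0.90) of 6 for mesothelium, Pi16 (0.66) of 8 for fibroblasts, Thbs4 (0.71) of 7 for tendon and Cd209a (0.47) of 7 for dendritic cells. The part of these cell types in the rise of Tap1 was not tested.

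The 4 cohorts were compared within each muscle with a moderated F test. No member passed in either muscle (adjusted p from 0.552 to 0.999), where 0.0129% of all genes passed in the tibialis anterior and 0.00431% in the diaphragm. Below an unadjusted 0.05 there was 1 member, Psmb10 in the diaphragm (adjusted p = 0.552), where 1726 of all 23185 genes were below it.

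**Figure D2:**
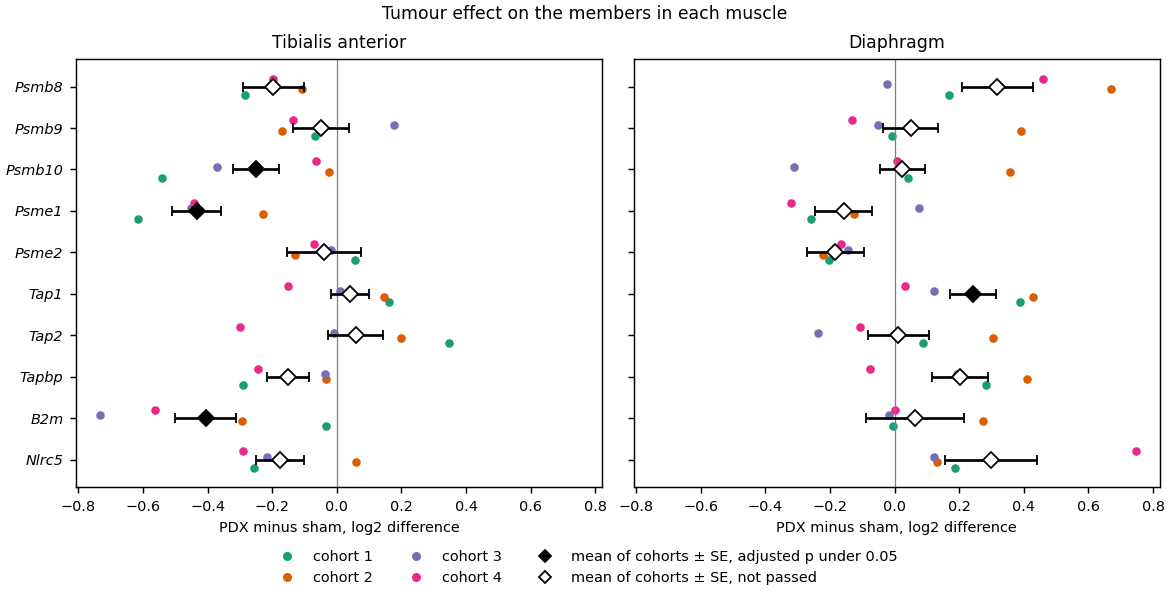
PDX minus sham (log2) for each member in the tibialis anterior (left) and the diaphragm (right). Coloured points are the 4 cohorts and diamonds their mean with the SE; filled diamonds passed at an adjusted p under 0.05, which were Psmb10, Psme1 and B2m on the left, all below 0, and Tap1 on the right, at 0.24.

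The tumour effect differed between the muscles for the catalytic subunit Psmb8 and for tapasin. Psmb8 had -0.20 in the tibialis anterior and 0.32 in the diaphragm, and Tapbp -0.15 and 0.20, so in both genes neither effect alone passed while their difference did. The difference (diaphragm effect minus tibialis anterior effect) was 0.51 ± 0.15 (SE, adjusted p = 0.0245) for Psmb8 and 0.35 ± 0.11 (SE, adjusted p = 0.0371) for Tapbp. Of the 10 members 2 passed above 0 and 0 below, where 3.66% of all genes passed above and 2.67% below. An unadjusted p under 0.05 was found for 7 members and for 4289 of all 23185 genes. The members' median was 0.28, against -0.01 over all genes.

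Neither gene passed without the liver-RNA arrays (0.38, adjusted p = 0.122 for Psmb8, and 0.37, adjusted p = 0.0963 for Tapbp) or without cohort 1 (0.54, adjusted p = 0.0993, and 0.28, adjusted p = 0.323) or cohort 2 (0.43, adjusted p = 0.235, and 0.32, adjusted p = 0.256). Psmb8 did not pass without cohort 4 either (0.47, adjusted p = 0.0706), and with the cohorts as the replicates neither passed (adjusted p = 0.0886 and 0.180). Tapbp also lost its call when any of 15 arrays was left out (adjusted p from 0.0502 to 0.0737). In the tibialis anterior these were sham replicates 1 of cohort 1, 2 of cohort 2, 1 of cohort 3 and 1 and 3 of cohort 4, and PDX replicates 2 and 3 of cohort 1. In the diaphragm they were sham replicates 2 and 3 of cohort 1, 2 of cohort 2, 3 of cohort 3 and 3 of cohort 4, and PDX replicates 1 and 2 of cohort 1 and 3 of cohort 4. B2m had 0.47 (adjusted p = 0.123) with all arrays and 0.66 without the liver-RNA arrays, where some groups kept a single array. It passed with the hepatocyte mean of the diaphragm arrays as a covariate, chosen after the data were seen (0.48, adjusted p = 0.0328). Psmb8, Tapbp and Nlrc5 also passed with that covariate. Nlrc5 had 0.47 (adjusted p = 0.0720), and it passed without sham diaphragm replicate 3 of cohort 2 (adjusted p = 0.0333) or PDX diaphragm replicate 3 of cohort 3 (adjusted p = 0.0494). Psmb10 had 0.27 (adjusted p = 0.0947). Psme1 (0.28, adjusted p = 0.161) and Tap1 (0.20, adjusted p = 0.205) did not pass, so the fall of Psme1 in one muscle and the rise of Tap1 in the other were not shown to differ between muscles. Psmb9, Tap2 and Psme2 had 0.10, -0.05 and -0.14. Fibroblast markers (8 of 8), macrophage markers (8 of 11) and tendon markers (4 of 7) and the endothelium marker Kdr (0.64) also passed above 0 in this comparison, and their part was not tested.

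**Figure D3:**
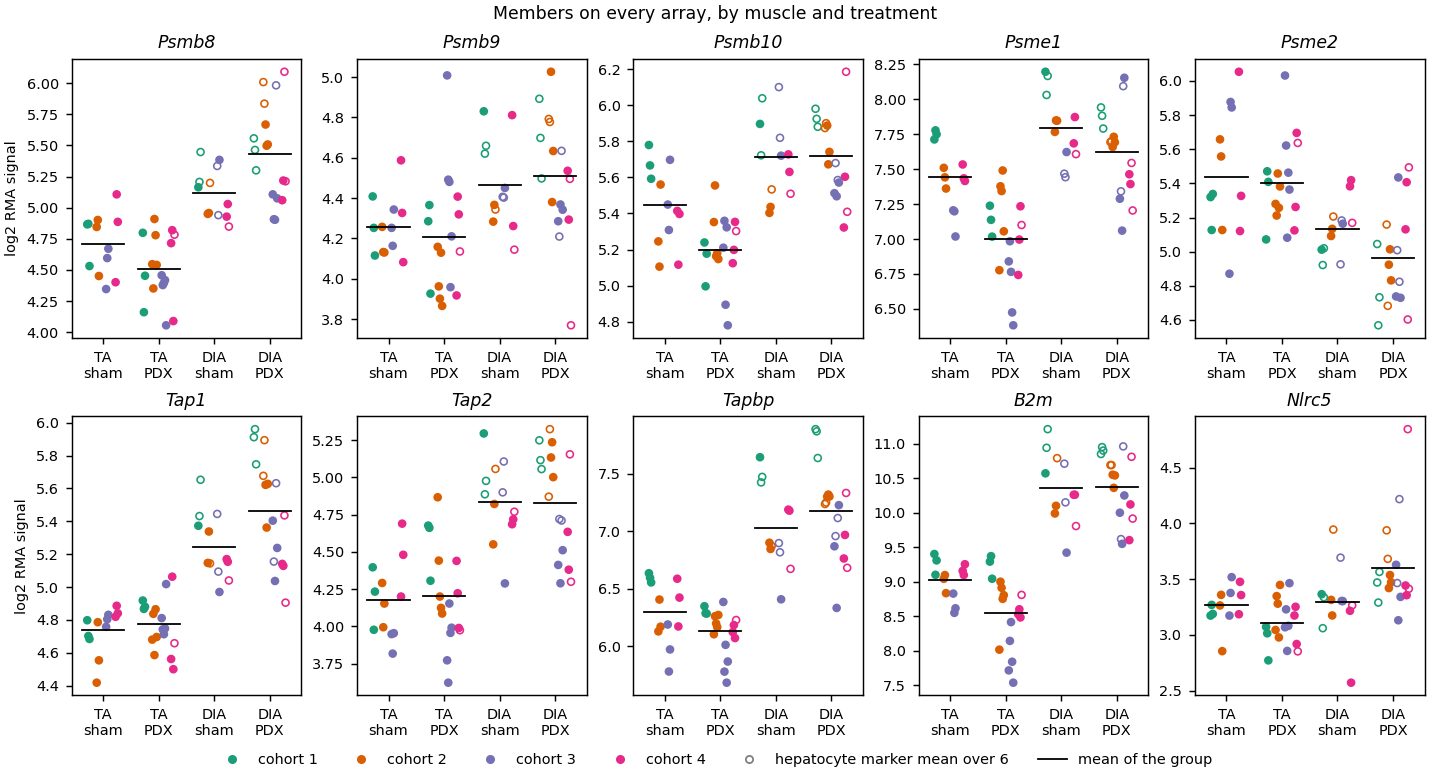
Log2 values of the 10 members on all 58 arrays, in 4 groups of muscle and treatment (TA, tibialis anterior; DIA, diaphragm). Colours are cohorts, open circles are arrays with a hepatocyte marker mean over 6, and lines are group means; the B2m and Tap1 sham groups of the 2 muscles do not overlap, and 9 of 17 PDX arrays of Psme1 in the tibialis anterior lie below every sham array.

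Within the diaphragm, several members followed the liver transcripts from array to array. After the mean of each group was subtracted, Pearson's r with the hepatocyte mean over the 29 diaphragm arrays was 0.700 for B2m, 0.680 for Nlrc5 and 0.626 for Psmb8. It was 0.493 for Tap1, 0.470 for Psmb10, 0.431 for Tap2, 0.174 for Tapbp, 0.143 for Psme1, -0.249 for Psme2 and 0.000286 for Psmb9. These arrays may share steps of dissection and normalization, which the sources used here do not give, and no test was made. On the PDX arrays over 6 in the hepatocyte mean, B2m ran from 9.62 to 10.96 (median 10.8), and on the other PDX arrays from 9.55 to 10.6 (median 10.2). The sham arrays had like medians of 10.8 and 10.2, so the levels overlapped but their medians went with the liver transcripts in both treatments.

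**Figure D4:**
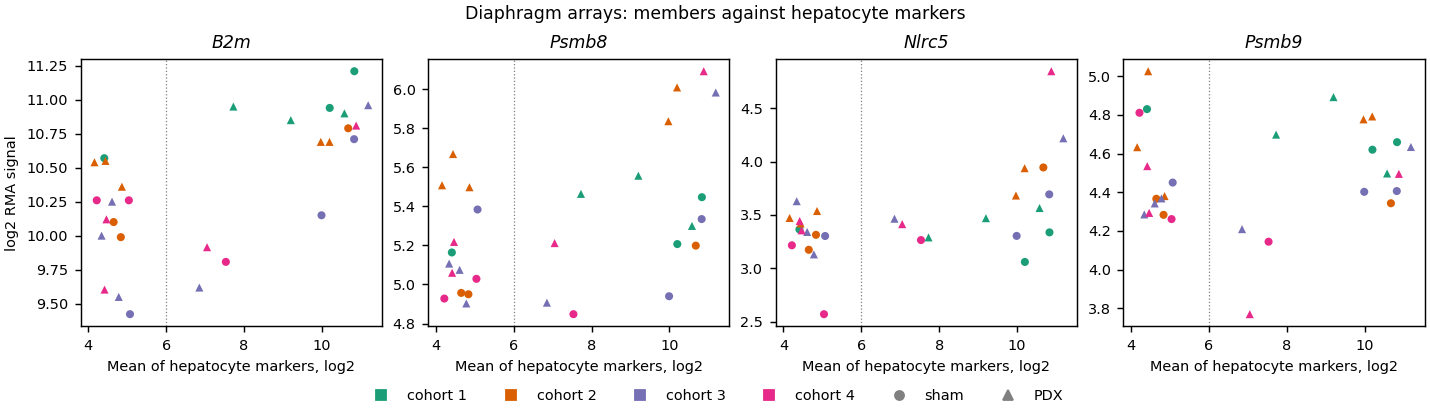
Log2 values of B2m, Psmb8, Nlrc5 and Psmb9 on the 29 diaphragm arrays against the mean of 9 hepatocyte markers (log2); circles are sham, triangles are PDX, colours are cohorts and the dotted line is at 6. The first 3 genes are highest among arrays on the right of the line (r of 0.700, 0.626 and 0.680 after group means were subtracted), and Psmb9 shows no slope.

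How the members varied together was also described by array. Each member's r with the mean of the other 9, over 29 arrays and after group means were subtracted, was 0.796 for B2m, 0.760 for Psmb8, 0.717 for Tap1 and 0.715 for Psmb10 in the diaphragm. The same genes had r of 0.700, 0.626, 0.493 and 0.470 with the hepatocyte mean in that muscle. Psme2 ran against the others there (-0.604). Over the tibialis anterior arrays the values lay between -0.374 (Tap2) and 0.451 (Psmb9). The genes outside the set whose residuals over the 58 arrays were most like the members' mean were Ly6e (r = 0.823), Lgals9 (0.820), Slc29a1 (0.804), Baiap2l1 (0.792), Casp6 (0.790), Epb41l4b (0.789), Abhd17c (0.781), Ptprf (0.780), Cpt1a (0.777) and Cmah (0.775). For these 10 genes r lay between 0.841 and 0.920 over the diaphragm arrays and between 0.158 and 0.487 over the tibialis anterior arrays. The part of liver RNA in these correlations was not tested.

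Psmb6 and Psmb7, constitutive catalytic subunits that the inducible ones replace, had -0.02 and 0.06 in the tibialis anterior and -0.14 and -0.15 in the diaphragm, and neither passed (0 of 2 in each muscle; 0 and 2 at an unadjusted p under 0.05). Both were lower in the sham diaphragm than in the sham tibialis anterior, by 0.25 for Psmb6 (adjusted p = 0.00321) and 0.46 for Psmb7 (adjusted p = 3.15e-07). The inducible Psmb8 and Psmb10 were higher there, calls that were both lost with the hepatocyte covariate, and Psmb9 (0.21) did not pass. Without the liver-RNA arrays Psmb8 had 0.40 and Psmb10 0.22. Psmb5, the other constitutive catalytic subunit, was not among the named genes. Of 14 other core and cap subunits and assembly factors, 3 rose in the tibialis anterior and 0 fell: Psma7 (0.49), Psma4 (0.35) and Psmb4 (0.29). In the diaphragm 0 of 14 passed (2 at an unadjusted p under 0.05, both below 0).

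Class I heavy chains are the partners of B2m. Of 16 measured, 0 rose and 1 fell in the tibialis anterior, H2-T24 (-0.26, adjusted p = 0.0190). In the diaphragm 4 rose and 0 fell: H2-D1 (0.45, adjusted p = 0.00988), H2-Q4 (0.30), Mr1 (0.29) and H2-M3 (0.21). In the sham muscles 5 were higher in the diaphragm, among them H2-Q10 by 1.82 ± 0.73 (SE, adjusted p = 0.0438), H2-D1 by 1.48 and H2-K1 by 1.06, and 2 were lower. H2-Q10 is known as a gene of the liver, and the hepatocyte markers were higher in the same comparison. The heavy chains too were read only with the liver-RNA arrays included. Close copies among these genes may share probes, so their values are uncertain.

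Of 6 chaperones and trimming enzymes of class I loading, Calr, which holds new class I molecules, fell in the tibialis anterior (-0.18, adjusted p = 0.0348), and 0 passed in the diaphragm (1 at an unadjusted p under 0.05, below 0). In the sham muscles 5 of 6 were higher in the diaphragm, where 15.2% of all genes passed as higher. Pdia3, the disulphide isomerase of the loading complex, was higher by 1.23, Canx by 0.63, Calr by 0.62 and Hspa5 by 0.56. This list was read only with the liver-RNA arrays included. The part of liver RNA in these differences was not tested.

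Class II genes, which present peptides on macrophages and other professional cells, were read beside the set. Of 9 measured, 5 rose in the diaphragm and 0 fell, with H2-Aa at 1.37, Cd74 at 1.27, H2-Ab1 at 1.07 and Ctss at 1.06. Of the same genes 0 passed in the tibialis anterior (2 at an unadjusted p under 0.05, below 0), with Cd74 at -0.35 (adjusted p = 0.156). The difference between muscles passed for 5 of 9, with Cd74 at 1.62. Macrophage markers rose beside them in the diaphragm, as given above.

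Of 8 genes that act on class I and class II promoters, Ciita, the class II counterpart of Nlrc5, rose in the diaphragm (0.39, adjusted p = 0.0105), and the CCAAT-binding subunits Nfyc (-0.32) and Nfyb (-0.23) fell. The tibialis anterior had 0 of 8 past the threshold (0 at an unadjusted p under 0.05).

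Among 16 interferon ligands, receptors and signalling genes, Socs3, a feedback inhibitor of cytokine signalling, rose in both muscles, by 0.82 in the tibialis anterior (adjusted p = 0.0325) and 1.34 in the diaphragm (adjusted p = 7.82e-06). The receptor subunit Ifngr2 fell in the tibialis anterior (-0.42, adjusted p = 0.00142). In the diaphragm 4 rose and 0 fell: beside Socs3 they were the transcription factor Irf8 (0.45) and the receptor subunits Ifnar2 (0.40) and Ifngr1 (0.21).

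Of 28 interferon target genes, 1 rose and 4 fell in the tibialis anterior, and 2 rose and 1 fell in the diaphragm. Oasl2 fell in the leg (-0.38, adjusted p = 0.00536) and rose in the diaphragm (0.49, adjusted p = 0.00771), and this difference of 0.88 passed (adjusted p = 0.000163). The chemokine gene Cxcl9 fell in both muscles (-0.38 and -0.49). In the sham muscles 22 of 28 were higher in the diaphragm and 0 lower, where 15.2% and 24.5% of all genes passed. Their median was 0.54, against 0.38 for the 10 members. The furthest apart were Iigp1 (2.29 ± 0.38, SE), Oasl2 (1.62 ± 0.12) and Gbp2 (1.59 ± 0.12). These targets were read only with the liver-RNA arrays included, and the part of liver RNA was not tested.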

How the data were processed

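Total RNA was labelled with biotin and measured on Affymetrix arrays. The values used are log2 expression levels of 25206 probe sets, deposited for 58 arrays; the authors computed them by RMA (affy 1.36.1, R 2.15.1; source: per the submitters' processing notes). The log2 scale was inferred from the range of values. The build, the probe set definitions and any joint normalization of cohorts: not given in the sources used here. Gene symbols covered 23185 of these, with 2021 unnamed; dim genes were kept. Precision is limited by the number of arrays.

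Tests used limma 3.58.1 and statmod 1.5.0 (R 4.3.3), tried first on simulated data. In each muscle 1 mean was fitted for every combination of cohort and treatment; the tumour effect weights the 4 cohort differences equally. The contrast of muscles and the sham contrast used all 58 arrays (16 group means). P-values are two-sided, with Benjamini-Hochberg adjustment over the 23185 genes and a threshold of 0.05. All 10 members are named; of each other list, up to 4 genes past the threshold by size, or the 2 with the smallest p, and the 10 genes whose residuals were most like the members' mean. Liver-RNA arrays are diaphragm arrays whose hepatocyte marker mean was more than 1 above the diaphragm median (over 7.85). Alternatives covered scaling, dim genes, array weights, cohorts, left-out arrays and blocks. The members and lists were chosen with earlier results of these data known.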

Additional observations from a re-analysis of the deposited data

Results flagged for a closer look

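In the tumour-bearing groups with 4 or 5 arrays, 60 sets of member values were checked for 1 array far from the rest, and 6 were found, where chance gives about 1 in 20. Psmb8 stood low in the tibialis anterior at 4.06 on PDX replicate 5 of cohort 3 (the others 4.38 to 4.46) and at 4.09 on PDX replicate 3 of cohort 4 (the others 4.72 to 4.82). B2m stood low there at 8.02 on PDX replicate 1 of cohort 2 (the others 8.75 to 9.001). In the diaphragm, Psmb8 stood high at 5.98 on PDX replicate 4 of cohort 3 (the others 4.90 to 5.11) and at 6.09 on PDX replicate 3 of cohort 4 (the others 5.06 to 5.22). Nlrc5 stood high at 4.85 on that last array (the others 3.36 to 3.44). These 2 diaphragm arrays had hepatocyte marker means of 11.2 and 10.9; the part of liver RNA in their values was not tested.

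The tumour effect differed between the muscles, by the test of the difference itself, for Psmb8 (diaphragm minus tibialis anterior 0.51) and for Tapbp (0.35).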

How the results depend on the processing

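No member that had passed changed sign under any alternative tried. In the tibialis anterior, the 3 lower calls became 1 with the cohort as the replicate. In the diaphragm, the 1 higher call became 2 without genes below the median of all values, with quantile normalization, array weights or all 58 arrays in the fit, without cohort 3 or cohort 4, and with the hepatocyte mean as a covariate. It became 0 with arrays centred on their median, without cohort 1 or cohort 2, with the cohort as the replicate, without the liver-RNA arrays, and in cohorts 2 to 4 without arrays over 6 in the hepatocyte mean. Lower calls there went from 0 to 1 without cohort 3 and with the replicate block (Psme1, -0.23, adjusted p = 0.0296). The 2 members whose effect differed between muscles became 4 with array weights or the covariate and 1 with centring, where Tapbp lost its call. They became 0 without cohort 1 or cohort 2 and with the cohort as the replicate. The replicate block of equal numbers in both muscles also left 0 (Psmb8 adjusted p = 0.0700, Tapbp 0.0788). Without the liver-RNA arrays the difference was 0.38 for Psmb8, 0.37 for Tapbp and 0.66 for B2m. In cohorts 2 to 4 it was 0.30, 0.28 and 0.72. Psmb8 and Tapbp lost their calls in these 2 fits and B2m gained a call. Both fits kept only sham diaphragm replicate 3 of the cohort 3 shams, so these changes rest in part on a single array. B2m and Nlrc5 were the members added with the covariate. The 1 lower call in the sham muscles became 0 without cohort 1, 2 or 3, without the liver-RNA arrays, in cohorts 2 to 4, with the covariate and with the replicate block (Psme2 adjusted p = 0.0501). The covariate and the cohorts 2 to 4 setting were chosen after the data were seen. The cause of these changes was not tested.

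With 1 array left out in turn, higher calls ran from 0 to 3 in the diaphragm and from 1 to 3 for the difference between muscles, and lower calls in the sham muscles from 0 to 1. Lower calls in the tibialis anterior ran from 3 to 4 and higher calls in the sham muscles from 7 to 8. Under the other alternatives these higher calls ran from 5 to 8. Over all genes and all alternatives but these, counts ran from 515 to 1979 higher and 607 to 1857 lower in the tibialis anterior, 304 to 1887 and 350 to 2033 in the diaphragm, 308 to 1357 and 95 to 1333 for the difference, and 2195 to 4311 and 2171 to 7566 in the sham muscles.

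The labels do not say whether equal sample numbers in both muscles mark the same mouse. Residuals of equally numbered samples correlated above 0.1 in 4 of 29 pairs across muscles. They did so in 5 of 12 sham and PDX pairs of the diaphragm and in 0 of 12 of the tibialis anterior. Low correlation across muscles cannot show that the mice differed, since the diaphragm arrays also varied in liver transcripts. With the block on numbers, Psmb10 in the tibialis anterior had -0.23 (adjusted p = 0.151). Nlrc5 lay near background, so a change in it may be understated.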
